A study of Mus musculus with 10 samples.

Results

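Protein made for secretion folds in the endoplasmic reticulum (ER), and 10 genes that serve this folding or respond when it fails were followed in mouse liver after the liver microRNA miR-122 was blocked with an antisense oligonucleotide (ASO). The 10 genes were Hspa5, Hsp90b1, Calr, Sdf2l1, Dnajb9, Pdia4, Creld2, Manf, Herpud1 and Xbp1. They were taken by symbol from the array annotation, through probes assigned to 1 gene, and all 10 were measured, among 18012 genes with a tested probe. Dnajb9 had 2 probes and each of the others 1, which gave 11 probes.

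The ASO group held 5 livers of male C57Bl/6 mice injected intraperitoneally with a miR-122 antisense with 2 injections of 50 mg/kg in each of 4 weeks. The saline group held 5 livers of mice injected with saline on the same schedule, whose strain and sex the labels do not give. Livers in both groups were taken 2 days after the last dose, and the age of the animals is not given in the labels. The antisense was a phosphorothioate with 2′-O-methoxyethyl sugars, and since the control was saline, effects of the oligonucleotide itself and of blocking miR-122 cannot be told apart. Each liver was hybridised to its own single-channel CodeLink array, so n = 5 livers per group throughout.

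The ER lumen holds chaperones that keep new polypeptides from aggregating, enzymes that form disulfide bonds, and a disposal route that returns misfolded chains to the cytosol for degradation. When unfolded protein builds up, the membrane sensors Ern1 (IRE1), Atf6 and Eif2ak3 (PERK) start the unfolded protein response (UPR), in which the transcription factors Atf6 and Xbp1 raise transcription of the chaperone and disposal genes. Hepatocytes secrete most plasma proteins and carry a large ER, and several of these genes are known to follow feeding in liver.

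Several of the 10 genes carry, close to their start, the DNA elements through which Atf6 and Xbp1 act. The 250 bases before the RefSeq start (GRCm38.p6) were searched in 9 of the genes. Promoter sequence for Manf was not used here. The search took the ER stress element (ERSE), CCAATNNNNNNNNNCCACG, the second element (ERSE-II), which is ATTGG and CCACG with 1 base between them, and the core of the UPR element, TGACGTG, on both strands and with exact letters. An ERSE was found in 4 of the 9 promoters (Hspa5, Hsp90b1, Calr and Creld2) and in 0.113% of all 32851 promoter windows of that length. ERSE-II was found in Herpud1 alone of the 9 and in 0.0304% of all windows. The TGACGTG core was found in Hspa5 alone and in 1.65% of all windows. The genes were chosen for their part in ER folding and its stress response. These shares therefore describe their promoters and are no test of enrichment. The matches are shown on the strand of each gene so that the conserved ends, in capitals, can be compared. CGTGG followed by ATTGG is the element read on the opposite strand.
Hspa5 ERSE, chr2:34772025-34772043: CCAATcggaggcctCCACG
Hsp90b1 distal ERSE, chr10:86705638-86705656: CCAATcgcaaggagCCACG
Hsp90b1 proximal ERSE, chr10:86705533-86705551: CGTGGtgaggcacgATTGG
Calr ERSE, chr8:84847075-84847093: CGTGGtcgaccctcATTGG
Creld2 ERSE, chr15:88819520-88819538: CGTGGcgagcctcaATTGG
Herpud1 ERSE-II, chr8:94386377-94386387: ATTGGgCCACG

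The promoters of 3 genes are given whole because the values of these genes contrast in the results that follow: Hspa5 and Creld2, which carry an exact ERSE, and Sdf2l1, in which none of the 3 motifs had an exact match in this window. Capitals mark the matches.
Hspa5, chr2:34771840-34772089, plus strand: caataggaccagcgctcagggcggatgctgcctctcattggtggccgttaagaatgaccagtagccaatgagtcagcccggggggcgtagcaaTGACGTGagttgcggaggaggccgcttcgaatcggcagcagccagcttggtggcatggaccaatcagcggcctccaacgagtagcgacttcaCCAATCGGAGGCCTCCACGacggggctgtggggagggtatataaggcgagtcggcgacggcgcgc
Creld2, chr15:88819396-88819645, plus strand: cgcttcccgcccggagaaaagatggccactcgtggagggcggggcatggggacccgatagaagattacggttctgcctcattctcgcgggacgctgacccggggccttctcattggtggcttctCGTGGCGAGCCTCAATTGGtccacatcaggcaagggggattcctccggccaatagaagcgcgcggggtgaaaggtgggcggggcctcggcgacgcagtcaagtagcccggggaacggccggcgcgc
Sdf2l1, chr16:17132384-17132633, minus strand: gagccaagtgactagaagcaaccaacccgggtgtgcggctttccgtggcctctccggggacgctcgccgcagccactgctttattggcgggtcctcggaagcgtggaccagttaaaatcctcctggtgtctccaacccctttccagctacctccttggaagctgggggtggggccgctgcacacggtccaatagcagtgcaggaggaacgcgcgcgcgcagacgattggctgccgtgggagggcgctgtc

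None of the 10 genes passed the test between ASO and saline livers, and they did not lean one way. In the ASO group 4 averaged higher and 6 averaged lower. Their median log2 fold change was -0.24, against -0.04 over all genes and -0.11 over genes brighter than the median probe, as all 10 were. The test was limma on log2 intensity with p-values adjusted over all 36088 tested probes at a threshold of 0.05, and 23 probes (0.0637%) passed it over the whole array. The lowest adjusted p among the 10 was 0.402, for Sdf2l1. At an unadjusted p under 0.05 there were 2 lower genes, Sdf2l1 and Creld2, and 0 higher ones. That threshold was passed by 8.26% of all genes in the lower direction and 4.21% in the higher one, and by 11.3% and 3.53% of the genes brighter than the median probe. The ASO and saline ranges overlapped in all 10 genes, while they did not overlap in 2.68% of all genes. The count of 2 was 0 without ASO replicate 2, ASO replicate 3 or saline replicate 2, and 1 without ASO replicate 4 or saline replicates 1, 4 or 5. Under quantile normalization it was 1, the 10 genes divided into 5 higher and 5 lower, and 46% of the genes past the unadjusted threshold were higher, against 33.8% as deposited.

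**Figure D1:**
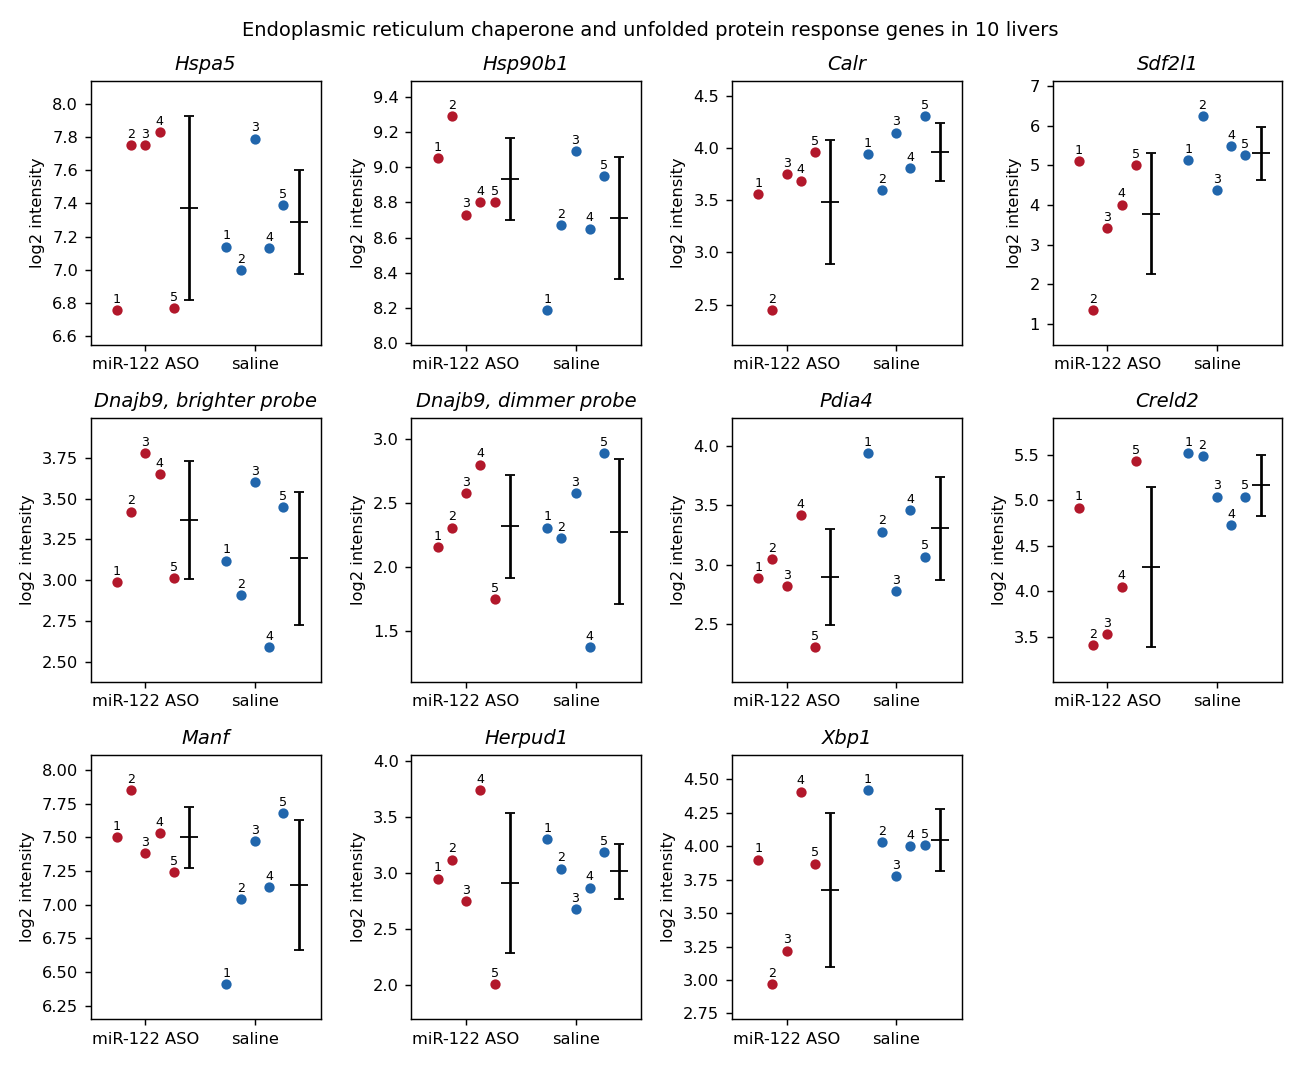
Log2 intensity (vertical axes, each on its own scale) of the 11 probes in 5 miR-122 ASO livers (red) and 5 saline livers (blue), with the replicate number above each point and the group mean ± SD as the black bar to its right. The ASO and saline points overlap in every panel, and ASO replicate 2 is far below the rest for Sdf2l1 (1.36) and Calr (2.45).

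Saline replicate 1 and ASO replicate 2 stood apart from the other arrays. On saline replicate 1 the brightest value was 542, against maxima of 1198 to 2333 on the other arrays, and that array had the lowest Hsp90b1 and Manf of all 10. ASO replicate 2 had the lowest value of its group in 4 of the 10 genes and the highest in 2. Saline replicate 3 also had the lowest value of its group in 4. The summed intensity of ASO replicate 2 over 8 Kupffer cell and macrophage markers was 48.8, against 146 to 277 in the other ASO livers and 115 to 276 in saline livers. The part of macrophage content in the chaperone values was not tested. Hepatocyte markers were bright in every liver, with a summed intensity over 7 genes of 4992 to 7036 in ASO livers and 2442 to 5812 in saline livers, the lowest being saline replicate 1. Whether the brightest probes were saturated or compressed on that array is not stated in the labels and was not tested. Any such effect would touch the sum, Alb and Apoa1. It would also touch Hsp90b1, the brightest of the 10 genes, at 8.19 on that array and 8.65 to 9.29 on the others. Plasma and B cell markers (9 genes, 35.1 to 51.7 in ASO livers and 40 to 55.3 in saline livers) and pancreatic acinar markers (7 genes, 3.89 to 6.86 in ASO livers and 4.17 to 7.35 in saline livers), from cells with an abundant ER, overlapped between the groups. In none of these lists was a marker at the floor of the scale (log2 -2.38) on every array. Tnfrsf17 (mean log2 -2.10), Cela3b (-1.87) and Cpa1 (-1.84) averaged close to it. Prss2 in ASO replicate 3 and Cela3b in saline replicate 1 were at -2.38. Of the 7 acinar markers, 1 was brighter than the median probe.

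Among the chaperones, Hspa5 (BiP, chr2:34772090-34776529), the Hsp70 chaperone of the ER that also holds the UPR sensors inactive, had log2 intensities of 6.76, 7.75, 7.75, 7.83 and 6.77 in ASO replicates 1 to 5, against 7.14, 7.0, 7.79, 7.13 and 7.39 in saline replicates 1 to 5. The ASO livers formed a high set of 3 and a low pair on either side of most saline livers, so the mean hardly moved while the SD was 0.55 in the ASO group and 0.32 in the saline group. The log2 fold change was 0.08 ± 0.27 (SE, with an adjusted p of 0.938 by limma), with a 95% interval of -0.51 to 0.67. The interval reaches past a rise of 1.5-fold, the size the study was designed to detect, so a rise of that size cannot be told apart from none. The sign turned without ASO replicate 2 (-0.01), ASO replicate 3 (-0.01) or ASO replicate 4 (-0.03), and the value was 0.24 without ASO replicate 1, 0.23 without ASO replicate 5 and 0.21 without saline replicate 3. In a bulk liver sample, fewer cells of a type and less RNA per cell cannot be told apart, here and for the genes that follow.

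Hsp90b1 (GRP94, chr10:86690841-86705444), the Hsp90 chaperone of the ER, had 9.05, 9.29, 8.73, 8.80 and 8.80 in ASO livers, against 8.19, 8.67, 9.09, 8.65 and 8.95 in saline livers. Saline replicate 1 was the lowest of the 10 and ASO replicate 2 the highest. The log2 fold change was 0.22 ± 0.20 (SE, with an adjusted p of 0.704 by limma). Leaving out saline replicate 1 gave 0.09, and leaving out ASO replicate 2 gave 0.13. Calr (calreticulin, chr8:84842088-84846931), a calcium-binding chaperone that holds glycoproteins during folding, had 3.56, 2.45, 3.75, 3.69 and 3.96 in ASO livers, against 3.94, 3.60, 4.15, 3.81 and 4.31 in saline livers. ASO replicate 2 alone lay more than 1 log2 unit under every other liver, and the other ASO livers lay inside or just under the saline range. The log2 fold change of -0.48 ± 0.28 (adjusted p = 0.542) was -0.22 ± 0.19 (adjusted p = 0.707) without that liver.

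Among the partners of the Hsp70 chaperone, Sdf2l1 (chr16:17130138-17132383), which binds ER J-domain proteins and is known to be induced in liver after feeding, had the largest difference of the 10 genes. Its log2 intensities were 5.11, 1.36, 3.42, 4.01 and 5.01 in ASO livers, against 5.13, 6.25, 4.38, 5.49 and 5.27 in saline livers. ASO replicates 2, 3 and 4 lay below all saline livers, while ASO replicates 1 and 5 lay inside the saline range. Sdf2l1 averaged 3.78 ± 1.53 in ASO livers and 5.31 ± 0.68 in saline livers (SD, n = 5 each), a log2 fold change of -1.52 ± 0.63 (SE), or 2.88-fold lower (limma unadjusted p = 0.0335, adjusted p = 0.402). Without ASO replicate 2 the log2 fold change was -0.92 ± 0.43 (unadjusted p = 0.0574, adjusted p = 0.497), with a 95% interval of -1.87 to 0.03. Dnajb9 (ERdj4, chr12:44205897-44210068), a J-domain protein that directs Hspa5 to clients and to the sensor Ern1, had 2.99, 3.42, 3.78, 3.65 and 3.01 in ASO livers, against 3.12, 2.91, 3.60, 2.59 and 3.45 in saline livers by its brighter probe. The groups covered nearly the same range, with a log2 fold change of 0.24 ± 0.24 (SE, adjusted p = 0.742). Leaving out saline replicate 4 gave 0.10, and leaving out ASO replicate 3 gave 0.13. The dimmer probe gave 0.04 ± 0.29 (adjusted p = 0.974), and both probes put ASO replicates 2, 3 and 4 above ASO replicates 1 and 5.

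Among the genes for disulfide-handling and cysteine-rich proteins, Pdia4 (ERp72, chr6:47796141-47813512), a protein disulfide isomerase, had 2.89, 3.05, 2.82, 3.42 and 2.31 in ASO livers, against 3.94, 3.28, 2.78, 3.46 and 3.07 in saline livers. ASO replicate 5 was the lowest and saline replicate 1 the highest, and the log2 fold change was -0.41 ± 0.26 (SE, adjusted p = 0.575), or -0.25 without saline replicate 1 and -0.26 without ASO replicate 5. Creld2 (chr15:88819646-88826681), a cysteine-rich protein of the ER that is induced by ER stress, had 4.92, 3.41, 3.53, 4.05 and 5.43 in ASO livers, against 5.52, 5.49, 5.04, 4.73 and 5.04 in saline livers. As for Sdf2l1, ASO replicates 2, 3 and 4 lay below every saline liver and ASO replicates 1 and 5 inside the saline range. Creld2 averaged 4.27 ± 0.88 in ASO livers and 5.16 ± 0.34 in saline livers (SD, n = 5 each), a log2 fold change of -0.90 ± 0.37 (SE), or 1.86-fold lower (limma unadjusted p = 0.0341, adjusted p = 0.404). It was -0.68 ± 0.36 (unadjusted p = 0.0908, adjusted p = 0.546) without ASO replicate 2.

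Manf (chr9:106888753-106891938), a small ER protein that is secreted under stress, had 7.50, 7.85, 7.38, 7.53 and 7.24 in ASO livers, against 6.41, 7.04, 7.47, 7.13 and 7.68 in saline livers. The ASO values lay within the upper part of the saline range apart from replicate 2, which was the highest of all 10. The log2 fold change of 0.35 ± 0.24 (SE, with an adjusted p of 0.598 by limma) was the largest positive one of the 10 genes. Leaving out saline replicate 1 gave 0.17, and leaving out ASO replicate 2 gave 0.27.

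Herpud1 (chr8:94386429-94395371), an ER membrane protein of the degradation machinery, had 2.95, 3.12, 2.75, 3.74 and 2.01 in ASO livers, against 3.30, 3.04, 2.68, 2.87 and 3.19 in saline livers. The ASO livers held both the highest and the lowest value of the 10, and the log2 fold change was -0.10 ± 0.28 (SE, adjusted p = 0.922). Its sign turned under quantile normalization (0.03) and without ASO replicate 5 (0.13). Xbp1 (chr11:5520641-5525993), the transcription factor whose messenger RNA is spliced by Ern1 during the UPR, had 3.90, 2.97, 3.22, 4.41 and 3.87 in ASO livers, against 4.42, 4.03, 3.78, 4.00 and 4.01 in saline livers. ASO replicates 2 and 3 lay below all saline livers and the other ASO livers inside the saline range. The log2 fold change was -0.37 ± 0.27 (SE, adjusted p = 0.627), and -0.20 ± 0.24 (adjusted p = 0.805) without ASO replicate 2. It was -0.56 without ASO replicate 4. The probe gives a total level, and the splicing of Xbp1 was not analysed here.

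**Figure D2:**
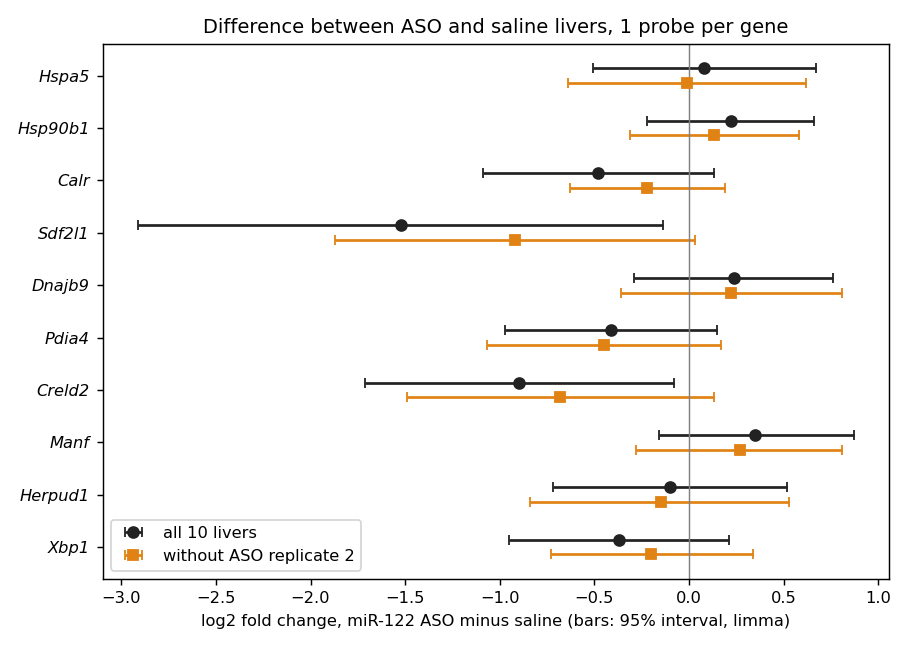
Log2 fold change of each gene (miR-122 ASO minus saline, horizontal axis) with its 95% interval from limma, over all 10 livers (black circles) and without ASO replicate 2 (orange squares). Over all livers the intervals of Sdf2l1 (-2.91 to -0.14) and Creld2 (-1.71 to -0.08) lie below 0 before adjustment, and without ASO replicate 2 all 10 intervals hold 0.

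The genes did not vary as 1 block from liver to liver. Within the ASO group, Sdf2l1 and Creld2 were highest in replicates 1 and 5, next in replicate 4, then in replicate 3 and lowest in replicate 2. Hspa5 and both Dnajb9 probes ran the other way, with replicates 2, 3 and 4 above replicates 1 and 5. In the saline group, Hspa5, Hsp90b1 and the brighter Dnajb9 probe were highest in replicate 3, where Sdf2l1 was lowest, while Creld2 followed neither pattern there. Pdia4, Herpud1 and Xbp1 had their highest ASO value in replicate 4, their highest saline value in replicate 1 and their lowest saline value in replicate 3. These orders describe 5 livers per group and were not tested.

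**Figure D3:**
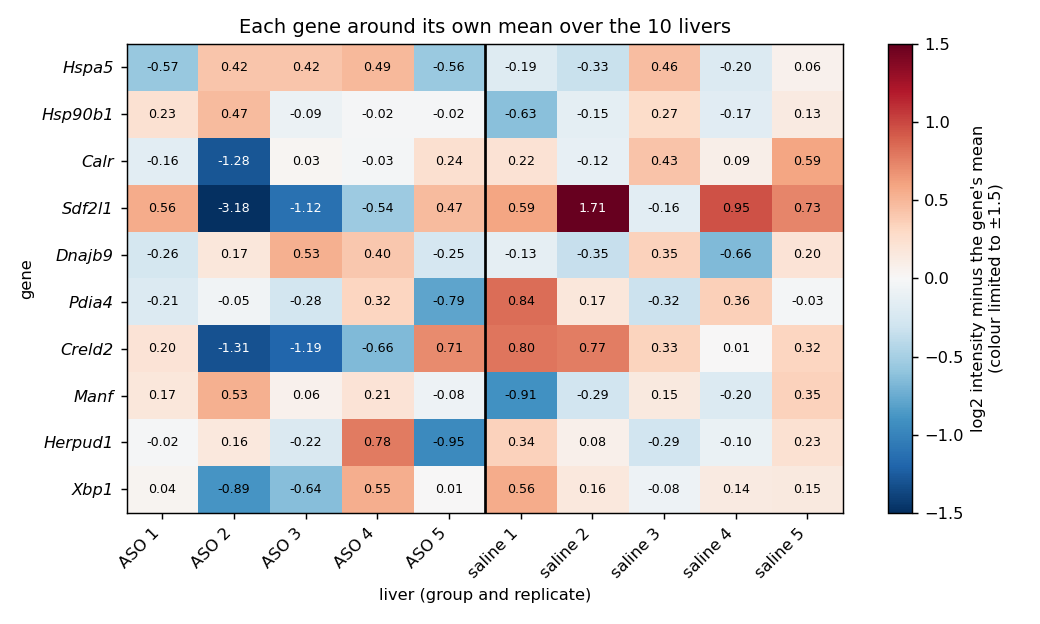
Log2 intensity of the 10 genes (rows) in the 10 livers (columns, ASO left of saline) after subtracting the mean of each gene over all livers, with the value printed in each cell and the colour limited to ±1.5. ASO replicate 2 holds both the lowest cell, Sdf2l1 at -3.18, and values above the mean for Hspa5 (0.42), Hsp90b1 (0.47) and Manf (0.53).

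Centred in the same way and averaged over the 10 genes, the mean profile ran from -0.50 in ASO replicate 2 to 0.27 in saline replicate 5. Its low point leaned on Sdf2l1 (-3.18) and was not common to the genes. In ASO replicate 2 their median was 0.05, and 5 of the 10 lay above their own mean. The root mean square distance of a gene from this profile over the 10 livers was smallest for Xbp1 (0.269 log2 units) and largest for Sdf2l1 (1.13). Among 10694 other genes brighter than the median probe and in none of the lists used here, the median distance was 0.431. Dnajb9 (0.454), Hspa5 (0.501), Manf (0.505), Creld2 (0.615) and Sdf2l1 lay farther from the profile than that. The 10 genes make up the profile themselves, and the other genes do not. The distance also grows with how much a gene varies between livers, so it does not measure likeness of pattern alone. The closest of the other genes were Donson (0.12), Tfam (0.123), Stradb (0.128), Dhrs11 (0.132) and Kctd14 (0.134). These 5 were picked for closeness out of many, and their log2 fold changes of -0.38 to -0.17 did not pass the limma test (adjusted p of 0.357 for Dhrs11 to 0.74 for Stradb). Stradb was at -0.06 without ASO replicate 2.

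Other genes of the secretory pathway were taken in 5 lists, and none of their measured genes passed the adjusted threshold. Under quantile normalization the median over all genes brighter than the median probe was 0.00 in place of -0.11, and the medians of the lists are to be read against that shift. List counts and ranges without overlap, here and below, are to be read against the shares of all genes. Of 10945 genes brighter than the median probe, 6847 were lower. At an unadjusted p under 0.05 by limma, 11.3% of these brighter genes were lower and 3.53% higher. Over all genes the shares were 8.26% and 4.21%, and the groups did not overlap in 2.68%. Of 16 other ER chaperones and cochaperones, 5 were higher and 11 lower, with a median of -0.33. At an unadjusted p under 0.05, 4 of them were lower and 1 higher, and the count of higher genes was 0 without ASO replicates 1 or 2 or saline replicates 1, 2, 4 or 5. The median was -0.19 under quantile normalization. Of the higher genes, Hyou1 (mean log2 -1.97) and Clgn (-2.22) averaged close to the floor. With brighter probes only, 3 were higher and 11 lower, with a median of -0.36 and 0 higher past the unadjusted threshold. Fkbp2, a prolyl isomerase of the ER, averaged 4.85 ± 0.60 in ASO livers and 5.88 ± 0.33 in saline livers (SD), a log2 fold change of -1.03 ± 0.28 (SE, with an adjusted p of 0.238 by limma). Sil1, the nucleotide exchange factor of Hspa5, averaged 2.16 ± 0.78 in ASO livers and 3.27 ± 0.23 in saline livers, a log2 fold change of -1.10 ± 0.33 (adjusted p = 0.264). The ASO and saline ranges did not overlap for Fkbp2 and Sil1. Without ASO replicate 2 they were at -1.12 and -1.30, and without ASO replicate 3 at -0.84 and -0.89. Cnpy2 showed a log2 fold change of -0.53 ± 0.17 (adjusted p = 0.294).

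Of 12 other ER oxidoreductases, 11 were lower, with a median of -0.27. At an unadjusted p under 0.05, 4 were lower (33.3%, against 11.3% of all genes brighter than the median probe). Ero1a, the oxidase that recharges disulfide isomerases, averaged 1.56 ± 0.17 in ASO livers and 2.24 ± 0.27 in saline livers (SD, n = 5 each) with ranges that did not overlap, a log2 fold change of -0.69 ± 0.18 (SE, with an adjusted p of 0.209 by limma). P4hb, the classical protein disulfide isomerase, had -0.58 ± 0.23 (adjusted p = 0.394) and Txndc5 -0.48 ± 0.22 (adjusted p = 0.436). The median was -0.13 under quantile normalization. The count of 4 was 1 under that setting, 1 without ASO replicate 1, ASO replicate 2, saline replicate 1 or saline replicate 2, and 2 without ASO replicate 3 or saline replicate 5. It was also 2 with trend and robust eBayes, with no floor and with brighter probes only.

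Of 18 measured ER-associated degradation genes, 15 were lower, with a median of -0.21. At an unadjusted p under 0.05, 2 were lower (11.1%, against 11.3% of all genes brighter than the median probe). Herpud2, a relative of Herpud1, showed a log2 fold change of -0.63 ± 0.28 (SE, with an adjusted p of 0.431 by limma), Erlec1, a lectin of the disposal route, -0.53 ± 0.24 (adjusted p = 0.44) and Ubxn4 0.51 ± 0.24 (adjusted p = 0.452), or 0.31 without saline replicate 4. The median was -0.04 under quantile normalization. The count of 2 lower genes was 0 under quantile normalization, with array weights, with no floor and without ASO replicates 2, 3 or 4 or saline replicates 1, 4 or 5, and it was 1 without ASO replicate 5 or saline replicate 3. Of 15 genes for ER translocation and signal peptidase, 10 were lower, with a median of -0.28 (-0.11 under quantile normalization). Sec61b, a subunit of the translocation channel, averaged 6.92 ± 0.29 in ASO livers and 7.55 ± 0.26 in saline livers (SD, n = 5 each) without overlap, a log2 fold change of -0.63 ± 0.19 (SE, adjusted p = 0.276), and was the 1 gene of that list past the unadjusted threshold, a count that was 2 without ASO replicate 5 or saline replicate 3. Srpr, a subunit of the signal recognition particle receptor, had -0.86 ± 0.43 (adjusted p = 0.482) and its partner Srprb 0.40 ± 0.25 (adjusted p = 0.575), or 0.25 without saline replicate 1.

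**Figure D4:**
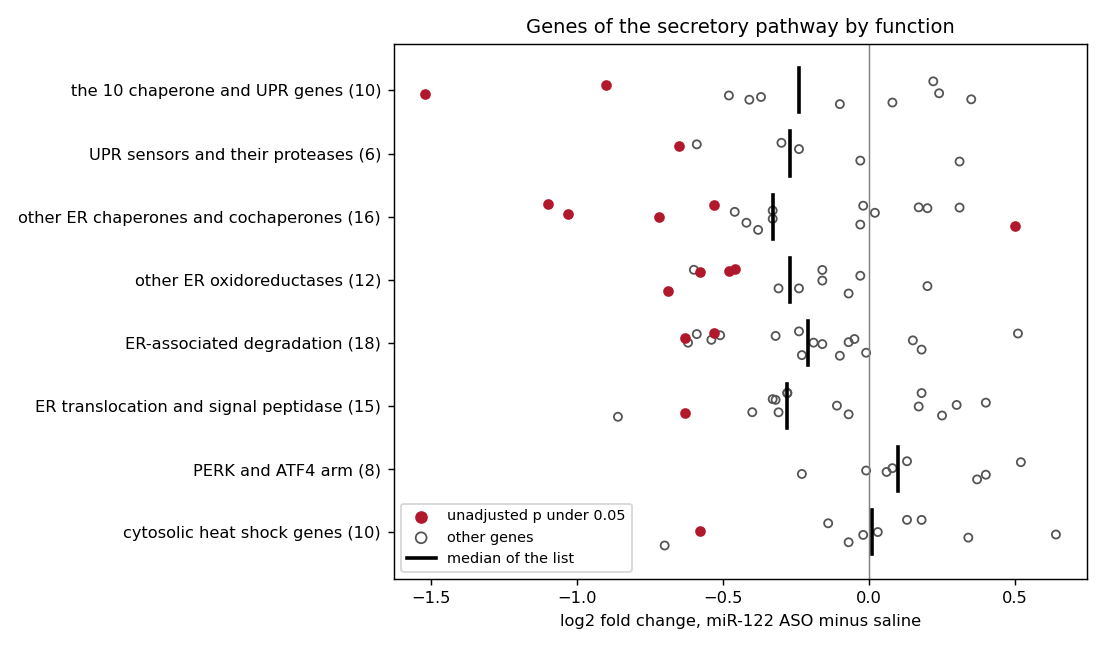
Log2 fold change (miR-122 ASO minus saline, horizontal axis) of each measured gene in 8 functional lists, the number of measured genes in brackets, with filled red points at an unadjusted p under 0.05 and a black line at the median of the list. The medians of the sensor, other chaperone, oxidoreductase, degradation and translocation lists lie between -0.33 and -0.21, and those of the PERK and ATF4 arm (0.10) and of the cytosolic heat shock genes (0.01) do not.

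The sensors and the proteases that release Atf6 were measured for 6 of 7 genes, with Atf6 itself not analysed here. Of the 6, 5 were lower, with a median of -0.27, and 1, the site-1 protease Mbtps1, was lower at an unadjusted p under 0.05 (log2 fold change -0.65 ± 0.28, SE, limma adjusted p = 0.411). The median was -0.13 under quantile normalization, with 4 lower and 2 higher, and -0.13 without ASO replicate 2. With ASO replicate 2 and saline replicate 1 both left out it was -0.09, with 3 lower and 3 higher. The count of 1 was 0 under quantile normalization and without ASO replicates 3, 4 or 5 or saline replicates 2, 3 or 5, and Mbtps1 was at -0.41 without ASO replicate 5. The site-2 protease Mbtps2 had 0.31 ± 0.18 (adjusted p = 0.551) and the sensor Ern1 -0.30 ± 0.21 (adjusted p = 0.613), or -0.19 without ASO replicate 2. In the PERK and ATF4 arm, which slows translation and induces amino acid and stress genes, 6 of 8 genes were higher, with a median of 0.10, and 0 passed the unadjusted threshold in either direction with limma, though 1 was higher without ASO replicate 4, ASO replicate 5 or saline replicate 4. The transcription factor Atf3 showed a log2 fold change of 0.40 ± 0.22 (adjusted p = 0.521), the glutathione-degrading enzyme Chac1 0.37 ± 0.21 (adjusted p = 0.541) and Atf4 0.52 ± 0.35 (adjusted p = 0.595). Atf4 was at 0.14 without saline replicate 4 and Chac1 at 0.24 without ASO replicate 5. Atf3 (mean log2 -0.59) and Chac1 (-0.53) were dimmer than the median probe, and were at 0.17 and 0.15 with a pseudocount of 1. With brighter probes only, 4 genes of this arm were higher and 2 lower, with a median of 0.07.

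Cytosolic heat shock genes, which answer to another stress pathway, were 5 higher and 5 lower of 10, with a median of 0.01, and 1, Hspb1, was lower at an unadjusted p under 0.05. That count was 0 under quantile normalization and without ASO replicates 3 or 4 or saline replicates 3 or 5. The small heat shock protein gene Hspb1 showed a log2 fold change of -0.58 ± 0.23 (SE, with an adjusted p of 0.387 by limma), the J-domain protein gene Dnaja1 0.64 ± 0.37 (adjusted p = 0.541) and Hsph1 0.34 ± 0.21 (adjusted p = 0.561). Dnaja1 was at 0.32 without saline replicate 5 and Hsph1 at 0.22 without saline replicate 3. Of 11 clock genes, which time feeding-linked programs in liver, 5 were higher and 6 lower, with a median of -0.01. At an unadjusted p under 0.05, 3 were lower and 1, Tef (0.64 ± 0.26), was higher, with 0 past the adjusted threshold. The 1 higher gene was lost without ASO replicates 3, 4 or 5 or saline replicates 1 or 2. Nr1d2 (mean log2 -2.13) averaged close to the floor. With brighter probes only, 7 clock genes remained, 2 higher and 5 lower, with a median of -0.18. The summed intensity of the 11 genes, in which bright ones such as Nr1d1 weigh most, was 89.8 to 105 in ASO livers and 106 to 186 in saline livers. Arntl had -1.07 ± 0.23 (adjusted p = 0.151), Nr1d1 -1.19 ± 0.38 (adjusted p = 0.282) and Clock -0.77 ± 0.27 (adjusted p = 0.32), and the part of clock phase in the chaperone values was not tested.

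Of the cell type markers, 0 passed the adjusted threshold with limma, and at an unadjusted p under 0.05 only Ms4a1 and Cel were lower and 0 were higher over all livers. Among B cell genes Ms4a1 showed a log2 fold change of -0.57 ± 0.16 (SE, with an adjusted p of 0.246 by limma), Cd79a -0.51 ± 0.23 (adjusted p = 0.448) and Jchain, an immunoglobulin chain of plasma cells, -0.30 ± 0.18 (adjusted p = 0.558). Ms4a1 was dimmer than the median probe (mean log2 -0.36) and was at -0.25 with a pseudocount of 1. With brighter probes only, 0 plasma and B cell markers passed the unadjusted threshold. The pancreatic genes Cel (-0.84 ± 0.36), Cela3b (0.33 ± 0.21) and Prss2 (-0.38 ± 0.34) were all dimmer than the median probe as well. Without ASO replicate 3, Prss2 was at -0.06 and Cela3b at 0.21, and without ASO replicate 4 Prss2 was at -0.59. Among hepatocyte genes Alb had 0.57 ± 0.27, Apoa1 0.50 ± 0.26 and Arg1 -0.32 ± 0.16, and without saline replicate 1 Alb had 0.33 and Apoa1 0.27. The macrophage gene C1qa had -0.67 ± 0.41, and -0.33 without ASO replicate 2, while the Kupffer cell lectin Clec4f had -0.20 ± 0.25 and Adgre1 0.26 ± 0.23. Clec4f was at -0.02 without ASO replicate 2 and -0.06 without saline replicate 2, and Adgre1 at 0.14 without ASO replicate 4 and 0.17 without saline replicate 4.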

How the data were processed

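The authors deposited 1 linear intensity per probe and array, and the array medians were nearly equal (1.03 to 1.05). Per the labels' protocols, total RNA of each liver was labelled with biotin by the CodeLink assay. How background and scale were handled, and by which software, is not stated in the labels. Each array held 74 to 377 values of 0 or less. Of 36227 probes, 36088 had at least 3 values in each group. Values under the 10th percentile of positive values (0.192) were set to it before taking log2. Differences are ASO minus saline, fitted over all probes with limma 3.58.1 (lmFit, eBayes) in R 4.3.3, two-sided, without covariates, with Benjamini-Hochberg adjustment. The procedure was tried on simulated data with known changes and independent normal noise. That trial held no differences between whole arrays, so it does not cover them. Gene names came from the platform annotation (21615 probes with 1 gene, 681 with several, 13931 with none), and Entrez IDs of 21487 matched GRCm38.p6 RefSeq, with 0 symbols changed. For each gene the probe with the highest mean over all arrays was used. Named genes are the 10 genes, up to 3 of each other list by smallest p, and the 5 closest in profile. The members and lists were chosen with earlier results of these data known. The alternatives tried were brighter probes only, array weights, quantile normalization, a pseudocount of 1, no floor, eBayes with trend and robust, averaging the probes of a gene, and leaving out each array in turn. Leaving out ASO replicate 2 and saline replicate 1 together, and the counts of the other lists under each alternative, were added after seeing the data. The number of arrays limits the precision.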

Additional observations from a re-analysis of the deposited data

Results flagged for a closer look

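Within a group of 5 livers, a value was looked at again where its gap to the nearest other value exceeded 0.71 of the range of the group (Dixon's test). Of 104 groups of values looked at, 6 stood out, and chance alone gives about 1 in 20. Calr in ASO replicate 2 was at 2.45, against 3.56 to 3.96 in the other ASO livers, which is the only such value among the 11 probes of the 10 genes. Of the other named genes, Txndc5 in ASO replicate 4 was at 4.90 (3.86 to 4.14 in the other ASO livers) and Chac1 in ASO replicate 5 at 0.15 (-0.56 to -0.40 in the others). Saline replicate 4 gave the remaining 3, with Atf4 at 5.64 (7.45 to 7.61 in the other saline livers), Ubxn4 at 5.25 (6.05 to 6.34) and Cel at -0.32 (-0.51 to -0.46). The causes were not tested.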

How the results depend on the processing

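Over the 11 probes of the 10 genes and 17 alternatives each, no adjusted p fell under 0.05 (lowest 0.173) and 178 of 187 values kept their sign. For these probes, brighter probes only, no floor, and eBayes with trend and robust leave the log2 fold change itself as it was. The sign could not turn under those settings. The sign turned for Herpud1 under quantile normalization (0.03), for Hspa5 with ASO replicate 2 and saline replicate 1 both left out (-0.05), and, among fits that left out 1 array, for Herpud1 (-0.31 to 0.13), Hspa5 (-0.03 to 0.24) and the dimmer Dnajb9 probe (-0.18 to 0.19). The count of 2 lower genes at an unadjusted p under 0.05 was 1 under quantile normalization, 0 with both arrays left out and 0 to 2 with 1 array left out, and that of higher genes was 0 throughout. The median of the 10 genes was -0.42 to -0.07 with 1 array left out, -0.10 under quantile normalization and -0.09 with both arrays left out. The 23 probes called over the whole array were 42 with trend and robust eBayes, 7 with no floor, 73 with brighter probes only, 0 with both arrays left out and 0 to 16 with 1 array left out. Over all genes the median moved to 0.01 under quantile normalization, and that of brighter genes to 0.00. The causes were not tested.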
